A study of Mus musculus with 12 samples.

Results

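Neuronal fractions of the trigeminal ganglion (TG) were compared with those of dorsal root ganglia (DRG) over all 12 RNA-seq libraries of the study, 6 from TG and 6 from DRG. Libraries were assigned by the ganglion named in their titles, and 14829 of the 22609 listed genes had enough reads to be tested. Each ganglion had 3 female and 3 male libraries from naive wild-type mice (C57BL in the labels, C57BL/6J in the methods of the study), with no transgene and no treatment in either group. The labels give an age of 3 to 4 months, whereas the methods of the study give a younger adult age. According to those methods the mice were perfused, the females were in estrous phase, the DRG came from lumbar levels of both sides, and cells were dissociated with enzymes before neurons were enriched on Percoll, a density gradient. Whether a TG and a DRG library came from the same mouse, and how many mice went into a library, is not given in the sources used here. The p-values therefore measure the spread between these samples, which may in part be technical.

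The TG holds the cell bodies of sensory neurons that serve the face, eye, mouth and meninges, and the lumbar DRG hold those that serve the hind limb and lower trunk. Both ganglia contain thermosensors, nociceptors, itch neurons, unmyelinated and myelinated touch neurons, and satellite glia, which wrap the neuron bodies. They differ in origin, as the TG forms from cranial neural crest and placode while the DRG form from trunk neural crest. In bulk RNA, fewer cells of a type and less RNA per cell cannot be told apart.

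Reads assigned to genes numbered 7511765 to 15396090 per library, and 12696 to 14202 genes had at least 10 counts. The share of reads outside genes was 44.4% ± 4.58 in TG and 44.4% ± 4.83 in DRG (SD, n = 6 each; exact two-sided permutation test, p = 0.972). 2 libraries stood apart in a principal component analysis: female DRG 1, the shallowest, on the first component (25.1% of the variance) and female TG 3 on the third (14.6%). Levels are given as CPM (counts scaled to a common library size), and 3 counts, taken as the lowest interpretable level, corresponded to 0.195 to 0.399 CPM in a single library and to a mean of 0.0421 CPM over the TG group and 0.0466 CPM over the DRG group. Values with ± are means with the SD over the 6 libraries of a ganglion, and intervals and floors cover counting error only.

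Few of the genes tested passed the thresholds for a call, which does not show that the other genes were equal. With edgeR's quasi-likelihood test, sex as covariate, a Benjamini-Hochberg adjusted p under 0.05 and a fold change (FC) above 2, 135 genes were called, which is 0.91% of those tested. 80 genes were higher in TG (0.539%) and 55 were higher in DRG (0.371%). The lowest library of one ganglion lay above the highest of the other for 202 genes (1.36%), among them 63 of the genes called higher in TG and 32 of those called higher in DRG. The genes higher in DRG had the larger median change: the median log2 FC of the calls was 1.44 in size for genes higher in TG and 2.20 for genes higher in DRG, and 30 of 55 DRG calls exceeded 4-fold against 19 of 80 TG calls. The 39 DRG calls outside the Hox clusters had a median of 1.63 in size, and 14 of them exceeded 4-fold. Over all genes tested the median log2 FC, TG over DRG, was -0.01, and 1327 (8.95%) had an unadjusted p under 0.05. The counts of list members below are to be read against these shares, 0.91% called and 8.95% under this p. All 135 genes kept their direction when any 1 library was left out, and 75 also stayed called each time. Where a called gene whose difference is described below was not among these 75, this is said with its values. Members of a list that are named without being called, and without being among the 4 with the most reads, were chosen after their values were seen.

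**Figure D1:**
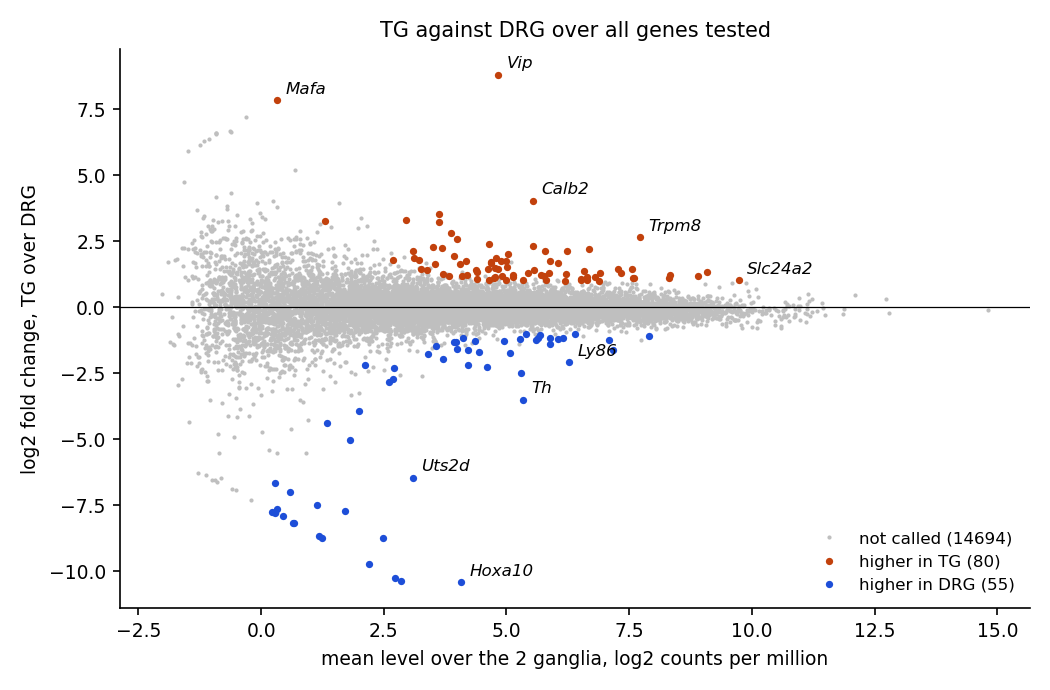
Log2 fold change, TG over DRG (vertical axis), against the mean level of both ganglia in log2 CPM (horizontal axis) for 14829 genes, with genes called higher in TG in orange (80) and higher in DRG in blue (55). Trpm8 and Calb2 stand out among abundant TG genes, and a group of DRG genes, mostly Hox genes, lies below a log2 fold change of -5.

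Trpm8, the ion channel that senses cool temperatures and menthol, had the smallest p among genes higher in TG. The 6 TG libraries ran from 239 CPM over a median of 387 to 463 CPM, and the 6 DRG libraries from 47.0 over 59.0 to 70.8 CPM. The lowest TG library was thus above every DRG library. The log2 FC was 2.65 (SE 0.19, adjusted p = 3.91e-08 by edgeR), with 2.43 in females and 2.88 in males. Per kilobase of exon the level was 77.4 in TG and 12.2 in DRG (RPKM, the CPM divided by exon length), which placed Trpm8 at rank 639 of the tested genes in TG and 4406 in DRG. On the annotation of the build used (NCBIM37, mm9) the gene spans chr1:90174236-90285868, plus strand, and overlaps an antisense transcript, 4930453O03Rik. The strand setting of the read counting is not given, so reads from such a pair cannot be told apart. Hjurp, a histone chaperone gene whose annotated start lies 27 bases from that of Trpm8 on the other strand, was also higher in TG (log2 FC 1.94, SE 0.29, adjusted p = 0.000817).

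Tyrosine hydroxylase (Th), the rate-limiting enzyme of catecholamine synthesis and the defining gene of unmyelinated touch neurons of hairy skin (C low-threshold mechanoreceptors), had the smallest p among genes higher in DRG outside the Hox clusters. TG libraries held 4.42 to 9.72 CPM with a median of 6.22, and DRG libraries 50.1 to 89.4 CPM with a median of 76.0. The groups did not overlap, and DRG libraries were above TG libraries in both sexes. The log2 FC was -3.50 (SE 0.24, adjusted p = 3.91e-08 by edgeR). The 250 bases before the RefSeq start sites of Trpm8 and Th are shown because these genes had the smallest adjusted p in each direction outside the Hox clusters, and those of Vip because its level varied among TG libraries as described below. The sequences are from RefSeq on GRCm38.p6, a later build than that of the counts, 5′ to 3′ on the strand of the gene, with capitals marking matches on either strand to TATAAA (the TATA box) or TGACGTCA (the cyclic AMP response element). The Trpm8 stretch is chr1:88306485-88306734, the Th stretch chr7:142899996-142900245 on the minus strand, and the Vip stretch chr10:5638968-5639217.
Trpm8: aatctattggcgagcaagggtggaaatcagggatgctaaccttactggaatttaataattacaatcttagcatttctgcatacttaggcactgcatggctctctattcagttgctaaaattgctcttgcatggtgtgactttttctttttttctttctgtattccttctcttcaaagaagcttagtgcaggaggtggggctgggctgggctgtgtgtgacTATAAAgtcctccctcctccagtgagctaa
Th: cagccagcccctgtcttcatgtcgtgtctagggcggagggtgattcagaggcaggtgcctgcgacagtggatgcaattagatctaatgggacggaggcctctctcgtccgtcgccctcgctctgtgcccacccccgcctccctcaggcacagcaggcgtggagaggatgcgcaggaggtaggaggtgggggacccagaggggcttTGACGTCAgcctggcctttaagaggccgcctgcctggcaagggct
Vip: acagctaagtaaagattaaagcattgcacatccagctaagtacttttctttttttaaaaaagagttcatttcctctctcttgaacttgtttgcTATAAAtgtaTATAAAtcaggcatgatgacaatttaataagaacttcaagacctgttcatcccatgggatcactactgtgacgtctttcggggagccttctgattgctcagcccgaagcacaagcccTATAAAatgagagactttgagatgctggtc
In Trpm8 the TATA match started 30 bases before the start site, in Th the cyclic AMP response element started 45 bases before it, and in Vip the nearest of 3 TATA matches started 30 bases before it. TATAAA was held by 12.4% of all 32851 RefSeq promoters and TGACGTCA by 1.55% in this window. Promoters were found for 89 of the 135 called genes. The corresponding shares were 9.33% (7) and 2.67% (2) of 75 promoters of 54 genes higher in TG. They were 8.70% (4) and 2.17% (1) of 46 promoters of 35 genes higher in DRG. The single TGACGTCA match in DRG is that of Th, so the shares of this motif rest on very few promoters. Such a match describes the letters only.

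**Figure D2:**
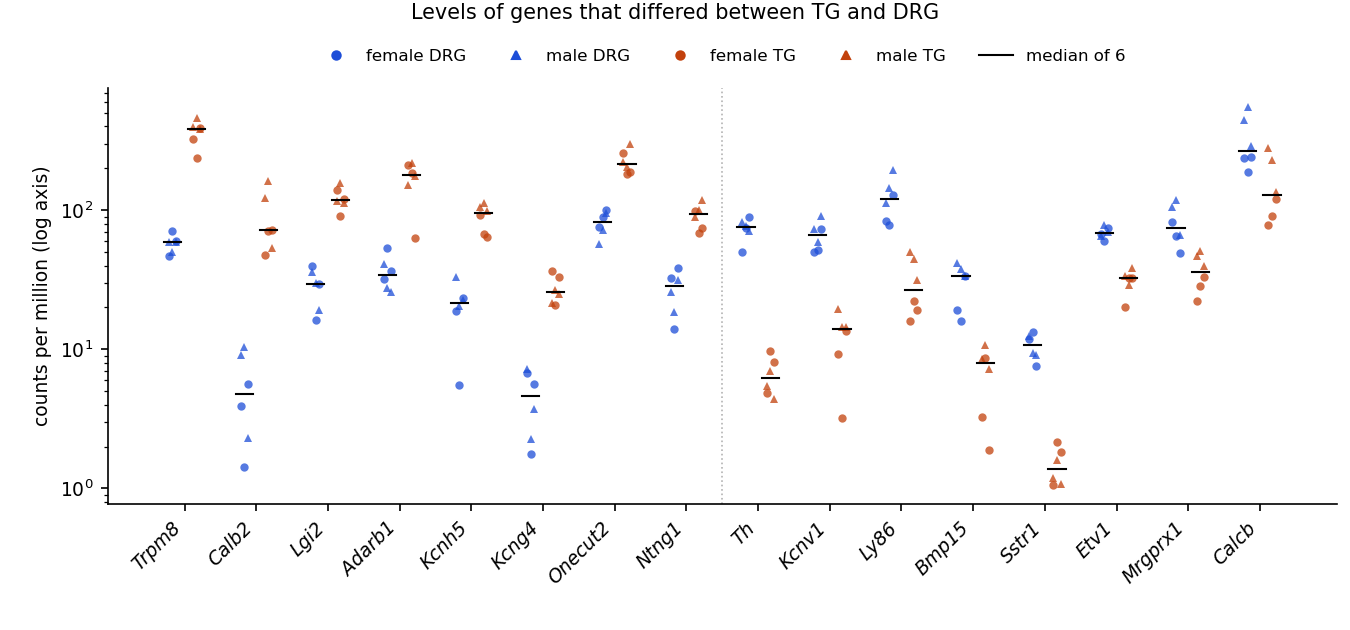
CPM on a log axis for 8 genes higher in TG (left of the dotted line) and 8 higher in DRG (right), 1 point per library (circles female, triangles male, blue DRG, orange TG) and a bar at the median of 6. TG and DRG points are separated for all 16 genes but Mrgprx1, where single libraries overlap, and Calcb, where several libraries overlap.

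Most other transient receptor potential (TRP) channels were not called. Of 18 tested members of this list, 1 was called higher in TG and 1 higher in DRG, with a median log2 FC of 0.00. Trpc6, a cation channel gated by diacylglycerol, was higher in DRG (28.5 ± 11.3 against 56.2 ± 14 CPM, log2 FC -1.02, SE 0.21, adjusted p = 0.0155), with overlapping groups, and passed in 7 of 12 fits with 1 library left out. Trpv1, the capsaicin and heat receptor, passed the adjusted p but not the fold threshold (74.5 ± 12.2 CPM in TG, 127 ± 29.8 CPM in DRG, log2 FC -0.76, SE 0.17, adjusted p = 0.0276). Trpc1 did likewise in the opposite direction (log2 FC 0.88, SE 0.21, adjusted p = 0.0403). The irritant receptor Trpa1 (log2 FC 0.40, SE 0.32), the steroid- and heat-sensitive Trpm3 (0.00, SE 0.16) and the kinase channel Trpm7 (-0.11, SE 0.20) passed neither threshold, with adjusted p of 0.880, 1.0 and 0.983.

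Calb2 (calretinin, a cytosolic calcium buffer found in subsets of large sensory neurons) had the second smallest p in TG. It ran from 47.7 over 71.7 to 162 CPM in TG and from 1.42 over 4.76 to 10.3 CPM in DRG, without overlap. The log2 FC was 4.04 (SE 0.38, adjusted p = 4.52e-06), and the gene lies at chr8:112661402-112692110. Of 14 neuronal calcium-binding proteins tested, Calb2 and Hpca were called, both higher in TG. Hpca (hippocalcin, a calcium sensor of neurons) averaged 45.9 ± 9.34 CPM in TG against 13.6 ± 6.57 CPM in DRG (log2 FC 1.76, SE 0.35, adjusted p = 0.0107), and overlaps Tmem54 on the other strand. S100b, found in glia and large neurons, had a log2 FC of 0.04 (SE 0.23), Necab1 one of -0.86 (SE 0.28), Vsnl1 one of 0.21 (SE 0.25), and Pvalb (parvalbumin), a marker of proprioceptors, one of -1.10 (SE 0.32, adjusted p = 0.132), with TG between 38.5 and 95.1 CPM and DRG between 38.7 and 270 CPM.

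A ligand and a receptor of 1 synaptic adhesion system were both higher in TG. Lgi2, a secreted leucine-rich repeat protein that binds ADAM receptors, ran from 90.9 over 119 to 156 CPM in TG and from 16.2 over 29.5 to 39.7 CPM in DRG (log2 FC 2.12, SE 0.23, adjusted p = 2.44e-05). Adam23, a catalytically inactive ADAM receptor of LGI proteins, ran from 506 over 652 to 819 CPM in TG and from 252 over 301 to 316 CPM in DRG (log2 FC 1.2, SE 0.16, adjusted p = 0.000274). Neither gene overlapped between ganglia. The other 5 members of this list of 7 were not called, with log2 FC of 0.78 for Lgi3, 0.28 for Adam11, 0.19 for Adam22, 0.17 for Lgi4 and -0.09 for Lgi1. Among the RNA editing enzymes, Adarb1, which deaminates adenosines in neuronal transcripts such as those of glutamate receptors, ran from 62.6 over 180 to 219 CPM in TG and from 26.0 over 34.2 to 53.5 CPM in DRG (log2 FC 2.22, SE 0.27, adjusted p = 7.46e-05). Its relatives Adar (log2 FC 0.32, SE 0.18) and Adarb2 (1.80, SE 1.33, at or below 2 CPM on average in both ganglia) were not called.

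Potassium channel genes were called in both directions, 4 higher in TG and 2 higher in DRG among 81 tested. Over all genes tested the shares were 0.539% and 0.371%. The list had a median log2 FC of -0.02. Kcnh5 (Kv10.2, a slow delayed rectifier) ran from 64.6 over 95.4 to 113 CPM in TG and from 5.51 over 21.5 to 33.2 CPM in DRG (log2 FC 2.14, SE 0.27, adjusted p = 0.000119). Kcng4 (a silent subunit that modifies Kv2 channels) had 27.4 ± 6.30 against 4.55 ± 2.31 CPM (log2 FC 2.58, SE 0.35, adjusted p = 0.000274). Kcnq3, a subunit of channels with slow M-type currents, had a log2 FC of 1.66 (SE 0.26, adjusted p = 0.000998). None of these 3 overlapped between TG and DRG. Kcna1, a fast low-threshold channel next to the nodes of Ranvier and the gene of the list with the most reads, passed the adjusted p only (log2 FC 0.92, SE 0.17, adjusted p = 0.00618).

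The DRG counterpart was Kcnv1 (Kv8.1, another silent modifier of Kv2 channels), which ran from 49.8 over 66.2 to 90.8 CPM in DRG and from 3.21 over 14 to 19.5 CPM in TG. Its groups did not overlap, and the log2 FC was -2.47 (SE 0.28, adjusted p = 4.81e-05). Kcng4 and Kcnv1, both silent subunits, thus differed in opposite directions. Kcnmb1, an auxiliary subunit of the large-conductance calcium-activated channel, was also higher in DRG (log2 FC -1.39, SE 0.28, adjusted p = 0.0150), with overlapping groups. The abundant Kcna2 (log2 FC 0.59, SE 0.18), Kcnab2 (0.39, SE 0.18) and Kcna6 (-0.29, SE 0.19) were not called.

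Among 15 voltage-gated sodium channel genes, the auxiliary subunit Scn4b and the nodal channel Scn8a (Nav1.6) were higher in TG. Scn4b averaged 450 ± 98.9 CPM in TG against 194 ± 31.7 CPM in DRG (log2 FC 1.22, SE 0.18, adjusted p = 0.000654), and Scn8a 432 ± 95.1 and 202 ± 20.6 CPM (log2 FC 1.10, SE 0.17, adjusted p = 0.00108). Neither gene overlapped between ganglia, although Scn8a fell below the fold threshold without female TG 1 (log2 FC 0.97, adjusted p = 0.00506). The nociceptor channels Scn10a, Scn11a and Scn9a had log2 FC of -0.56 (SE 0.16), -0.48 (SE 0.18) and -0.36 (SE 0.26), and Scn7a, a sodium-sensing channel, one of -0.04 (SE 0.23). These 4 were not called, with adjusted p of 0.112 to 0.999. Outside the lists, and chosen after their values were seen, 4 further genes were higher in TG, and no list of related genes was counted. Spnb3 (βIII spectrin), which was also among the 15 smallest p, had a log2 FC of 1.36 (SE 0.18), the nodal adhesion protein Nfasc one of 1.12 (SE 0.20), the plasma membrane calcium pump Atp2b2 one of 1.12 (SE 0.19) and the sodium/calcium-potassium exchanger Slc24a2 one of 1.04 (SE 0.16). Slc24a2 had the most reads of the genes called higher in TG, with 876 to 1393 CPM in TG and 456 to 653 CPM in DRG. Nfasc was not called without female TG 1 (log2 FC 0.96, adjusted p = 0.0146).

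Of 48 subunits of ligand-gated channels, 3 were called, against 0.91% of all genes tested, and all 3 were higher in TG. The list had a median log2 FC of 0.19. The GABA-A receptor subunit Gabrb2 ran from 68.1 over 99.3 to 137 CPM in TG and from 16.5 over 29.8 to 46.5 CPM in DRG (log2 FC 1.69, SE 0.23, adjusted p = 0.000304). Grin1, the obligatory NMDA receptor subunit, had 97.5 ± 24.6 and 48.3 ± 6.36 CPM (log2 FC 1.01, SE 0.19, adjusted p = 0.00700). Grin1 passed in 7 of the 12 fits with 1 library left out, and it overlaps a transcript on the other strand. The ATP receptor P2rx3 (log2 FC -0.32, SE 0.21), the kainate receptor Grik1 (-0.67, SE 0.24), the glycine receptor Glrb (0.32, SE 0.17) and the serotonin-gated Htr3a (-0.32, SE 0.25) were not called. Voltage-gated calcium channels and the receptors for serotonin, opioids, cannabinoids and calcitonin gene-related peptide (CGRP) showed no called member, of 15 and 23 tested. At an unadjusted p under 0.05 edgeR counted 5 and 6, against 8.95% of all genes tested, and DESeq2 called 0 and 1. The µ-opioid receptor Oprm1 was nearly equal, with 56.4 ± 5.05 CPM in TG and 57.7 ± 5.53 CPM in DRG (log2 FC -0.03, SE 0.16). Htr1d, a target of triptans, had 78.2 ± 11.5 and 57.4 ± 18 CPM (log2 FC 0.47, SE 0.20, adjusted p = 0.457), Cnr1 had a log2 FC of 0.56 (SE 0.20) and Oprl1 one of 0.60 (SE 0.20). Cacna2d1, the subunit bound by gabapentin, had a log2 FC of -0.64 (SE 0.22, adjusted p = 0.271) and Cacna1c one of -0.51 (SE 0.22).

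Several G protein-coupled receptors outside these lists were also called and were chosen after their values were seen. Oxtr, the oxytocin receptor, ran from 10.4 over 13.1 to 19.5 CPM in TG and from 0 over 0.806 to 4.76 CPM in DRG (log2 FC 3.30, SE 0.75, adjusted p = 0.0309). Adra1a, the α1A adrenergic receptor, ran from 14.5 over 23.6 to 28.9 CPM in TG and from 0 over 1.63 to 8.09 CPM in DRG (log2 FC 3.23, SE 0.68, adjusted p = 0.0188). Neither overlapped, and they passed in 7 and 10 of the 12 fits with 1 library left out, with log2 FC of 4.26 without female DRG 1 for Oxtr and 4.23 without female DRG 2 for Adra1a. Sstr1, a somatostatin receptor, went the other way and was among the 15 smallest p in DRG, with 7.62 to 13.3 CPM in DRG and 1.06 to 2.17 CPM in TG (log2 FC -2.84, SE 0.42, adjusted p = 0.000684).

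Most genes with a log2 FC below -5 were Hox genes. These encode homeodomain factors whose order in 4 clusters matches the order of their expression along the body axis, and cells of the head anterior to the hindbrain lack most of them. Of 39 Hox genes listed, 28 were tested. Among these 16 were called, all higher in DRG, whereas 0.91% of all genes tested were called. The median log2 FC over the 28 was -7.15 as fitted and -5.87 with genes at 0 in TG set at their lower bound and genes with 1 to 3 TG counts set at the ratio of counts. 17 of the 28 had no count in any TG library, and 6 more had 1 to 3 counts over all TG libraries. These genes could pass the read filter only through the DRG libraries, so their direction was fixed by the filter. The median and the count of calls by direction carry this limit. TG and DRG libraries did not overlap for 9 of the 28, against 1.36% of all genes tested. Hoxd1, which was not called, is among these 9. Of the 16 calls, 9 remained without any 1 library and the others passed in 1 to 6 of 12 such fits. The count also depended on the tool: of the 28, DESeq2 called 21 higher in DRG, limma voom 25 and the replicate block 12.

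Hoxa10 was the most abundant Hox gene of the DRG per length, at 8.82 RPKM, and had the smallest p of all genes tested. DRG libraries held 18.1 to 50.3 CPM with a median of 33.0, or 2206 counts in all, and the 6 TG libraries held 1 count in all. The ratio was 2429, with a counting interval of 436 to 95996 (95%, exact). Hoxb9 had 677 DRG counts and 1 TG count, a ratio of 746 (133 to 29490). Hoxa9, Hoxd10 and Hoxb7 had no TG count and were at least 343-fold, 316-fold and 218-fold higher in DRG, with the floor of 3 counts taken over the TG group. By the same measure Hoxa7, Hoxb5 and Hoxc6 were at least 112-fold, 107-fold and 75.7-fold higher. Hoxa7 and Hoxb5 overlap antisense transcripts. Both were at 0 in 1 DRG library each, as were Hoxa5, Hoxc5, Hoxb6, Hoxb2 and Hoxd11, so their groups overlapped. Hoxc10 (ratio 222, 39.5 to 8829) and Hoxa5 (ratio 171, 30.2 to 6785) had 1 TG count each. Hoxc5, Hoxb6, Hoxc8 and Hoxb2 had none and were at least 74.4-fold, 64.4-fold, 59.3-fold and 55.7-fold higher in DRG. The bound of Hoxc8 was 19.8-fold without female DRG 1, and that of Hoxb6 38.7-fold without male DRG 1. With 1 library left out, Hoxc5 passed in 6 of 12 fits, Hoxa5 in 4, Hoxb6 and Hoxb2 in 2 each and Hoxc8 in 1. Without the library that held their single TG count, Hoxa10 (male TG 2), Hoxb9 (male TG 1), Hoxc10 (female TG 2) and Hoxa5 (female TG 3) were at least 647-fold, 223-fold, 58.8-fold and 47.1-fold higher in DRG.

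The Hox genes covered the clusters from front to back but not to the end. Summed over paralogue groups 10 and 11, the DRG libraries held 26.7 to 73.0 CPM and the TG libraries at most 0.0804 CPM. Over groups 5 to 9 they held 54.3 to 98.7 CPM against 1.73 to 6.91 CPM, and over groups 1 to 4 19.0 to 34.0 CPM against 10.9 to 22.5 CPM, where the ganglia overlapped. The most posterior groups, 12 and 13, were nearly silent in both, with 6 counts over all DRG libraries and 0 over all TG libraries. Hoxd11 was the most posterior gene called (at least 57.5-fold higher in DRG, adjusted p = 0.0493), and it passed in 2 of 12 fits with 1 library left out. Within the DRG the libraries differed in single genes. Female DRG 1 held 28.2 CPM of Hoxb9 and 10.8 CPM of Hoxc8, where the other 5 held 7.03 to 8.35 and 0.280 to 1.42 CPM. The same library held 3.93 CPM of Hoxa9, the lowest of the 6, and 32.8 CPM of Hoxa10, within the range of the others.

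**Figure D3:**
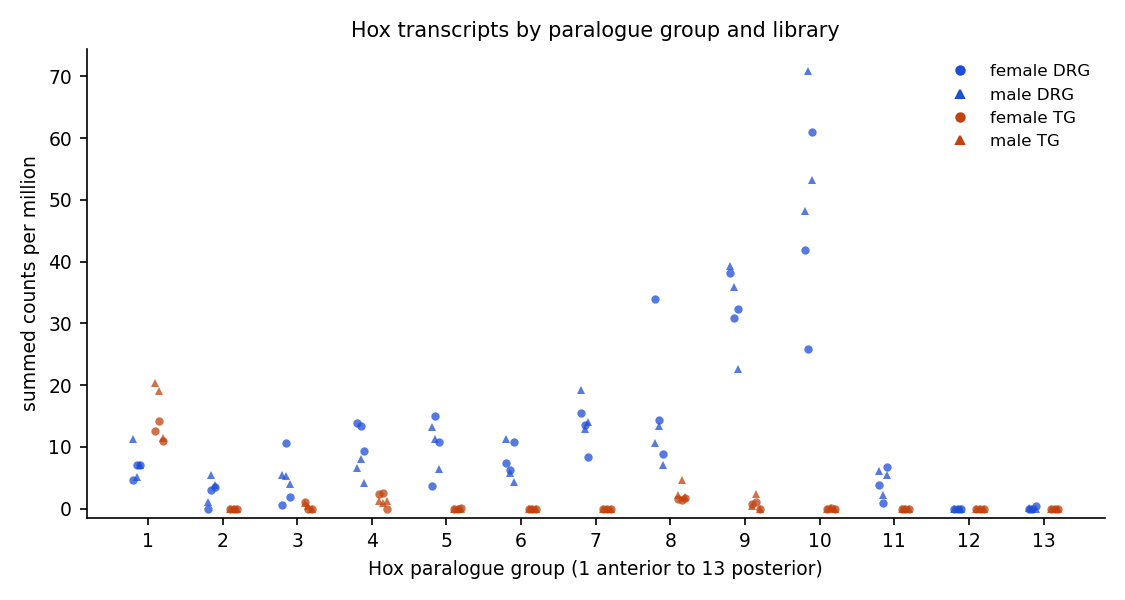
Summed CPM of the Hox genes in each paralogue group (horizontal axis, 1 to 13) for each library, with DRG in blue and TG in orange, circles female and triangles male. The median DRG level was highest at group 10, where the libraries held 25.8 to 70.9 CPM, whereas TG libraries held at most 0.0804 CPM in groups 2, 5 to 7 and 10 to 13.

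Hoxd1 was the exception. It was the only tested Hox gene fitted higher in TG, with 10.9 to 20.3 CPM in TG and 4.13 to 10.1 CPM in DRG and no overlap between the groups. Its log2 FC of 1.26 (SE 0.32) did not pass the main test (adjusted p = 0.0571 by edgeR). This depended on the fit. DESeq2, limma voom, scaling by library totals and a replicate block each called 1 Hox gene higher in TG. Leaving out female DRG 1 and female TG 3 did so too. Hoxd1 held 1072 of the 1424 Hox counts of the TG libraries. Hoxd8 was the other Hox gene counted in every TG library, at 1.37 to 4.56 CPM against 4.02 to 23.2 CPM in DRG (log2 FC -2.28, SE 0.51, adjusted p = 0.0294), with overlap, and passed in 6 of 12 fits with 1 library left out.

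Of 23 other factors of regional identity, 4 were called, against 0.91% of all genes tested, and all 4 were higher in TG. Onecut2, a cut-homeodomain factor, ran from 182 over 213 to 299 CPM in TG and from 57.2 over 82.9 to 99.8 CPM in DRG (log2 FC 1.46, SE 0.19, adjusted p = 0.000187). Meis2, a cofactor of Hox proteins, had 39.1 ± 4.37 and 12.1 ± 3.76 CPM (log2 FC 1.70, SE 0.25, adjusted p = 0.000613), also without overlap. Tbx3, a T-box repressor (log2 FC 1.49, SE 0.29, adjusted p = 0.0109), overlapped between groups and with a transcript on the other strand, and Eya1, a placode gene of cranial ganglia, was low in both (4.48 ± 1.22 and 0.470 ± 0.399 CPM, log2 FC 3.26, SE 0.79, adjusted p = 0.0484) and passed in 3 of 12 fits with 1 library left out. Six4 had a log2 FC of 0.42 (SE 0.18) and Tshz2 one of -0.57 (SE 0.23). Of the lineage factors of sensory neurons, 31 were tested and 2 were called. Mafa, which marks early touch neurons, had no DRG count and 0 to 4.82 CPM in TG, which made it at least 54.1-fold higher in TG (adjusted p = 0.0469), but it passed in 2 of 12 fits with 1 library left out. Etv1, required for proprioceptor circuits, was higher in DRG (20.0 to 38.4 CPM in TG, 60.0 to 78.6 CPM in DRG, log2 FC -1.16, SE 0.18, adjusted p = 0.00131), without overlap. The pan-sensory factor Isl1 (log2 FC 0.21, SE 0.27) and Runx1 of nociceptors (-0.51, SE 0.19) were not called.

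Genes of neuron subtypes were called in few cases. Of 9 tested genes of unmyelinated touch neurons, Th alone was called, and 8 of 9 were fitted lower in TG, with a median log2 FC of -0.51. The others ranged from -0.66 for Fam19a4 (SE 0.27, adjusted p = 0.436), a defining marker of the same neurons, to 0.38 for Zfp521 (SE 0.22). Slc17a8, the vesicular glutamate transporter of these neurons, had -0.64 (SE 0.35), Kcnd3 -0.52 (SE 0.22), Cdh9 -0.35 (SE 0.46), the GDNF family receptor Gfra2 -0.28 (SE 0.18) and P2ry1 -0.06 (SE 0.18). The FC of Th was therefore far larger than that of the genes listed with it. Of 9 proprioceptor genes, Etv1 alone was called. The members Ntrk3 (log2 FC -0.20, SE 0.17) and Spp1 (-0.16, SE 0.16) were not. Of 19 genes of myelinated touch neurons, Calb2, Scn8a and Mafa were called higher in TG, with a median log2 FC of 0.45. Ret, the GDNF family co-receptor, passed the adjusted p alone (629 to 1088 CPM in TG, 346 to 563 CPM in DRG, log2 FC 0.78, SE 0.16, adjusted p = 0.0169). The neurofilaments Nefl (-0.12, SE 0.20) and Nefm (0.24, SE 0.17) and the BDNF receptor Ntrk2 (0.17, SE 0.20) were not called.

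The nociceptor lists held 1 call each by edgeR. Of 14 peptidergic genes 1 was called, higher in DRG, and 3 were fitted higher in TG (median log2 FC -0.39), and of 22 non-peptidergic and itch genes 1 was called, higher in DRG, and 5 were fitted higher in TG (median -0.54). At an unadjusted p under 0.05 edgeR counted 5 of the 14 and 13 of the 22, against 8.95% of all genes tested. DESeq2 called 1 and 4, limma voom 1 and 3, and the replicate block 1 and 3, all higher in DRG. Calcb, which encodes βCGRP, ran from 77.9 to 280 CPM in TG and from 189 to 551 CPM in DRG (log2 FC -1.10, SE 0.21, adjusted p = 0.00686). The groups overlapped, and without male TG 3 its log2 FC was -0.999 (adjusted p = 0.0133), just under the fold threshold. Calca, which encodes αCGRP, had 1169 ± 531 and 1923 ± 837 CPM (log2 FC -0.69, SE 0.21, adjusted p = 0.159). Substance P (Tac1) had a log2 FC of -0.24 (SE 0.20), as had the receptor kinase Kit (SE 0.16). Mrgprx1, an itch receptor, ran from 22.3 to 50.7 CPM in TG and from 49.5 to 119 CPM in DRG (log2 FC -1.16, SE 0.20, adjusted p = 0.00304). It belongs to a family of near-identical genes, so its count is uncertain. Mrgprd, a receptor of non-peptidergic skin nociceptors, passed the adjusted p alone, with 127 to 168 CPM in TG and 207 to 338 CPM in DRG and no overlap (log2 FC -0.78, SE 0.17, adjusted p = 0.0204). P2rx3, Scn11a, Jak1 (log2 FC 0.09, SE 0.20) and Plxnc1 (-0.60, SE 0.19) were not called. Neurotrophin and GDNF family receptors and ligands had no called member of 15 tested by edgeR, and DESeq2 called 0. By edgeR 1 member had an unadjusted p under 0.05, and it also passed the adjusted p but not the fold threshold. Ncam1 had a log2 FC of 0.13 (SE 0.17) and Ngfr one of -0.32 (SE 0.19).

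**Figure D4:**
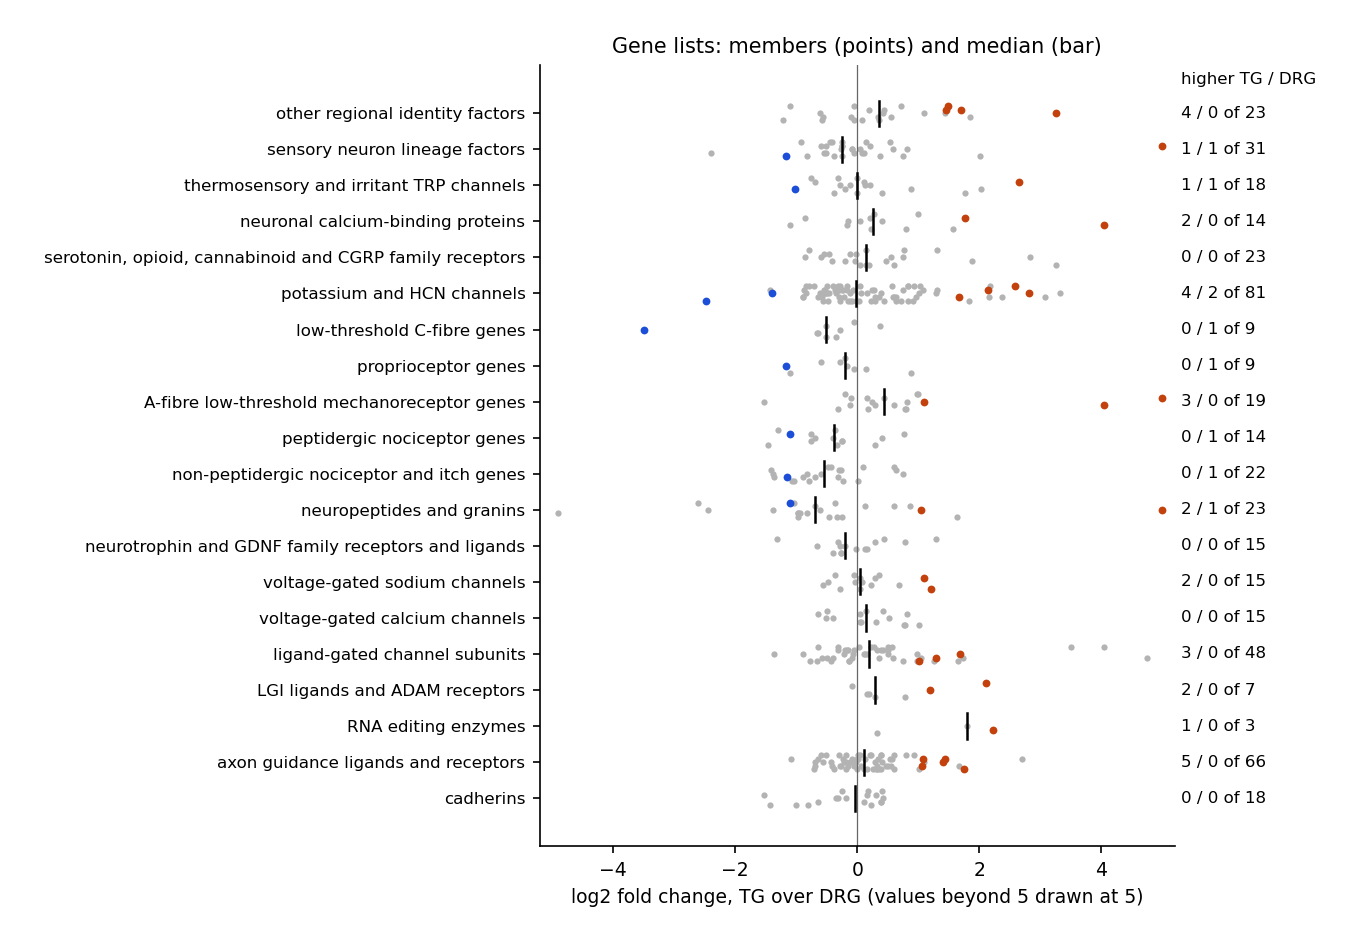
Log2 fold change, TG over DRG, of the tested members of 20 gene lists (points; orange called higher in TG, blue called higher in DRG, grey not called), with the median of each list as a black bar and the counts called higher in TG and in DRG at the right. Hox genes are not shown, and values beyond 5 are drawn at 5. Medians lie within 0.70 of 0 in all lists but the RNA editing enzymes, which have 3 members.

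Of 23 neuropeptides and granins, Vip and Chga were called higher in TG and Calcb higher in DRG. Vip encodes vasoactive intestinal peptide, a vasodilator found in parasympathetic neurons and in a few sensory neurons. Its level did not follow the ganglion in every library. Male TG 1 held 179 CPM, male TG 3 149 CPM and female TG 3 14 CPM, whereas the other 3 TG libraries held at most 0.138 CPM and the DRG libraries at most 0.552 CPM. TG and DRG therefore overlapped, and the edgeR log2 FC of 8.82 (SE 1.59, adjusted p = 0.00498) rested on 3 libraries, and it was 10.59 without male DRG 3. With limma voom and sample quality weights the log2 FC was 3.16 with an adjusted p of 0.651. Genes of parasympathetic neurons, chosen after this was seen, were highest in male TG 1 and male TG 3 but did not stand out in female TG 3. Slc18a3, the vesicular acetylcholine transporter, was counted only in male TG 1 (4.83 CPM) and male TG 3 (1.28 CPM). Slc5a7, the choline transporter, was at 48.5 CPM in male TG 1 and 11.6 CPM in male TG 3, and at 2.13 to 9.22 CPM in the other 10 libraries. Their part in the Vip result was not tested. Chga (chromogranin A of secretory granules) averaged 54.6 ± 15.4 CPM in TG against 26.2 ± 8.61 CPM in DRG (log2 FC 1.05, SE 0.21, adjusted p = 0.0105), with overlap, and passed in 9 of 12 fits with 1 library left out. The abundant granins Scg2 (log2 FC -0.82, SE 0.34) and Scg3 (-0.61, SE 0.30) were not called.

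Of 66 axon guidance genes, 5 were called, against 0.91% of all genes tested, and all 5 were higher in TG. The list had a median log2 FC of 0.11. Ntng1 (netrin-G1, a membrane-anchored netrin of synapses) averaged 91.1 ± 18 CPM in TG against 26.9 ± 9.27 CPM in DRG (log2 FC 1.75, SE 0.24, adjusted p = 0.000293), without overlap. The ephrin receptors Epha6 and Epha7 had log2 FC of 1.41 (SE 0.21) and 1.43 (SE 0.27), the semaphorin Sema7a 1.08 (SE 0.24) and the slit receptor Robo1 1.07 (SE 0.26), with adjusted p of 0.000613 to 0.0479. Sema7a and Robo1 each passed in 3 of 12 fits with 1 library left out, and Epha6 overlaps a transcript on the other strand. Plxnc1, Robo2 (log2 FC -0.18, SE 0.22), Plxna2 (-0.23, SE 0.20) and Plxna4 (0.59, SE 0.21) were not called. Cadherins had no called member of 18 (edgeR, 2 at an unadjusted p under 0.05; DESeq2 called 1), and the most abundant were Cdh1 (log2 FC 0.22, SE 0.15), Cdh11 (-0.32, SE 0.19), Cdh19 (-0.18, SE 0.22) and Cdh2 (0.30, SE 0.18).

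The remaining genes among the 15 smallest p in TG were not in a list. Tmem132c, a membrane protein related to cell adhesion proteins, ran from 31.8 to 54.2 CPM in TG and from 4.49 to 12.7 CPM in DRG (log2 FC 2.39, SE 0.27). Atp8a2, a phospholipid flippase of neurons, had 593 to 971 and 251 to 382 CPM (log2 FC 1.35, SE 0.16), and the myosin Myo1a had 67.5 to 111 and 5.98 to 28.3 CPM (log2 FC 2.33, SE 0.31). Tmem229b (log2 FC 1.44, SE 0.19), Gm4980 (1.86, SE 0.23) and the galactosidase-like Glb1l2 (1.77, SE 0.24) were the others, and none of these 6 overlapped between ganglia. Atp8a2 and Glb1l2 overlap transcripts on the other strand.

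The other genes among the 15 smallest p in DRG had varied roles. Ly86 (MD-1, a partner of an immune receptor) ran from 77.7 over 121 to 196 CPM in DRG and from 15.9 over 26.8 to 50.2 CPM in TG (log2 FC -2.09, SE 0.21, adjusted p = 1.07e-05), without overlap. It is in the macrophage marker list, but 12 of the 14 macrophage markers were fitted higher in TG and no other was called. Uts2d, which encodes a urotensin II-related peptide, had 2.34 to 47.8 CPM in DRG, with male DRG 2 and 3 highest, and 0 to 1.0 CPM in TG (log2 FC -6.46, SE 0.88, adjusted p = 0.000281). Male TG 1 held 11 of its 13 TG counts, and without it the log2 FC was -8.26. Bmp15, a growth factor known from the oocyte, had 16.0 to 42.1 CPM in DRG and 1.89 to 10.8 CPM in TG (log2 FC -2.20, SE 0.33, adjusted p = 0.000662). The actin-binding Tagln2 (log2 FC -1.63, SE 0.23), the adhesion protein Bves (-1.70, SE 0.24) and Lhfpl1 (-1.73, SE 0.27) were also without overlap. Gm53, an unnamed gene on the same strand as Hoxb9 and 6588 bases from it, followed the Hox genes, with 1 TG count and a ratio of 305 (54.3 to 12091), or at least 87.1-fold without female TG 1, which held that count.

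The following genes of matrix and secreted proteins outside the lists were chosen after their values were seen, and no list of such genes was counted. Vcan (versican) had 20.7 to 58.8 CPM in DRG and 3.62 to 15.4 CPM in TG (log2 FC -2.28, SE 0.37, adjusted p = 0.00157), Col12a1 had a log2 FC of -1.2 (SE 0.24, adjusted p = 0.0119) and the Wnt modulator Sfrp4 one of -1.95 (SE 0.37, adjusted p = 0.00902). Fn1 (fibronectin) had one of -1.22 (SE 0.30, adjusted p = 0.0493) but passed in 3 of 12 fits with 1 library left out. Ltbp2, Hapln4 and Lama3, also genes of matrix proteins, were higher in TG, with log2 FC of 2.30 (SE 0.36), 1.30 (SE 0.28) and 1.12 (SE 0.24). Hapln4 and Lama3 each passed in 9 of 12 such fits, and Ltbp2 and Fn1 overlap transcripts on the other strand. Of 8 fibroblast markers edgeR called 0, with 3 at an unadjusted p under 0.05, and DESeq2 called 0, but limma voom and the fit with a replicate block each called 2, higher in DRG. They had a median log2 FC of -0.42 and summed levels of 680 to 1714 CPM in TG and 1070 to 2244 CPM in DRG. Ltf (lactoferrin of neutrophil granules) ran from 0 to 0.622 CPM in TG and from 0.841 to 9.30 CPM in DRG (log2 FC -4.40, SE 1.06, adjusted p = 0.0462) and passed in 3 of 12 such fits, with a log2 FC of -5.46 without male TG 2. All 5 tested markers of neutrophils and lymphocytes were also fitted lower in TG. The 10 markers in the files summed to 0.804 to 11.9 CPM in TG and 9.15 to 98.1 CPM in DRG, with overlap. In male DRG 3, S100a9 alone held 50.0 of the 98.1 CPM. By edgeR 0 of 5 tested were called, with 4 at an unadjusted p under 0.05. DESeq2 and limma voom each called 2 and the replicate block 1, higher in DRG, and leaving out female DRG 1 and female TG 3 gave 2. S100a9 and S100a8 had log2 FC of -2.61 (SE 0.69, adjusted p = 0.0777) and -2.58 (SE 0.84). Their part in these results was not tested.

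Summed marker levels of other cell types overlapped between the ganglia. Neuronal markers summed to 6332 to 9575 CPM in TG and 5918 to 12013 CPM in DRG, with a median log2 FC of -0.11. Satellite glia summed to 4276 to 6963 and 2753 to 6027 CPM, myelinating Schwann cells to 2278 to 3579 and 2530 to 3569 CPM, macrophages to 290 to 741 and 358 to 649 CPM, and endothelial cells to 382 to 768 and 263 to 743 CPM. No marker gene but Ly86 was called by edgeR among the 94 tested over all marker lists. Of these 94, 16 had an unadjusted p under 0.05, against 8.95% of all genes tested. DESeq2 called 4 of the 94 and limma voom 5. Markers of the pituitary, which lies next to the TG, were at most 2.90 CPM in sum in any library, and 5 of 8 had no count.

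The direction of the ganglion difference was shared by females and males, whose libraries are separate. With 3 libraries against 3, 58 genes were called in males (0.414% of 13996 tested) and 5 in females (0.0358% of 13964 tested), the latter being Hoxa10, Th, Trpm8, Calb2 and Ly86. Of the 58 male calls 55 were tested in females. All 55 had the same direction there, 48 with an unadjusted p under 0.05, and the median log2 FC was 2.07 in males and 1.73 in females in the direction of the call. The 5 female calls all had the same direction in males. Of all 13569 genes tested in both sexes, 58.3% had the same sign. At an unadjusted p under 0.001, 93 of 93 male calls and 32 of 32 female calls had the same direction in the other sex. No gene had a ganglion effect that differed between the sexes in the interaction test of edgeR (smallest adjusted p = 0.9998). 292 genes had an unadjusted p under 0.05, and DESeq2 also called 0, with 388 genes under an unadjusted p of 0.05. Both counts lie below the 741 genes that chance alone would give. Since 3 libraries per group vary widely, equal effects in both sexes are not shown by this.

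**Figure D5:**
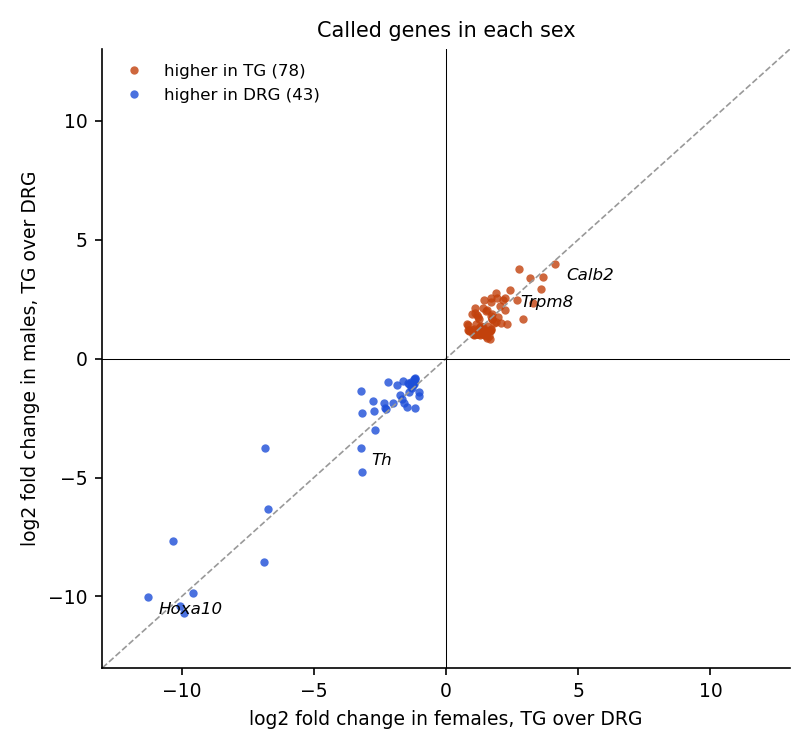
Log2 fold change, TG over DRG, in males (vertical axis) against females (horizontal axis) for the called genes that were fitted in both sexes, 78 higher in TG (orange) and 43 higher in DRG (blue). The genes were called on all 12 libraries, every point lies in the quadrant of its call, and the dashed line marks equal values.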

How the data were processed

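Sensory neuron fractions of naive mice were sequenced as ribosomal RNA-depleted total RNA. Per the labels and the methods, the authors aligned reads with TopHat2 to mm9 and counted them with HTSeq, and the deposited values are raw counts by gene symbol; versions, annotation and strand setting are not given in the sources used here. The 5 summary lines of each file are not genes and were left out; reads outside genes were taken from them. Counts ran from 7511765 to 15396090 per library.

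Counts were tested with edgeR 4.0.16 in R 4.3.3 (TMM factors, filterByExpr, quasi-likelihood F-test, Benjamini-Hochberg over all genes tested, log2 FC as TG over DRG) on a model of sex and ganglion. The study's methods name DESeq, so DESeq2 1.42.0 was an alternative, as was limma 3.58.1. Group and replicate number came from the titles. The standard error is the log2 FC divided by the square root of F. Lower bounds set 3 counts over the 6 libraries of a group. Exact permutation tests were two-sided. Positions and exon lengths are from the GENCODE annotation of NCBIM37, which matched 95.0% of genes. RPKM values divide mean CPM by exon length.

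The comparison and the gene lists were chosen with earlier results of these data known. Named genes were the 15 smallest p per direction, called list members, the 4 most abundant tested members of a list and members of lists of up to 8 genes; some are not reported here. Same-numbered TG and DRG libraries were checked for pairing and were not treated as pairs. The test was checked on counts simulated at the real means and library sizes. These were drawn independently, without a sex effect, shared replicate variation or an outlying library, so the check does not cover such features. Alternatives changed the scaling, filter, tool, covariate, block, libraries and fold threshold.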

Additional observations from a re-analysis of the deposited data

Results flagged for a closer look

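In 21 of the 405 groups of 6 libraries examined, 1 library lay far from the other 5 (Dixon's test at 95%), and chance alone gives about 1 in 20 such groups. Female DRG 1 accounted for 6 of them. It had the fewest genes with at least 10 counts (12696, next 13804) and the highest DRG level of Hoxb9 (28.2 CPM), Hoxc8 (10.8 CPM), Atp2b2 (164 CPM) and Kcna1 (643 CPM), and the lowest of Cdh2 (43.7 CPM). Male TG 1 was highest of the TG libraries for Slc5a7 (48.5 CPM), Slc18a3 (4.83 CPM) and Uts2d (1.0 CPM). Male TG 2 was highest for Myo1a (111 CPM), Hoxd8 (4.56 CPM) and Nxph1 (1.17 CPM). Female TG 1 was highest for Faah (51.5 CPM), and female TG 2 was lowest for Adam22 (412 CPM).

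Female DRG 3 was highest of the DRG libraries for Chga (43.5 CPM), Zfp521 (113 CPM) and Casr (8.22 CPM). Female DRG 2 was highest for Lama3 (30.2 CPM), male DRG 1 for Hoxd1 (10.1 CPM), and male DRG 3 for S100a9 (50.0 CPM) and Vip (0.552 CPM).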

How the results depend on the processing

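The 135 called genes kept their direction in all 3223 alternative fits that gave them a value, and in 710 of these they no longer passed. The number of calls depended more on the libraries and the tool. It was 126 with RLE size factors, 140 with library totals, 161 without a filter, 131 with mean CPM above 1, 200 with DESeq2, 114 with group means, 92 without the sex covariate and 183 without a fold threshold. Limma voom with quality weights called 244 genes (140 higher in TG, 104 in DRG), and leaving out both female DRG 1 and female TG 3 gave 208 (122 and 86). DESeq2 called 99 genes higher in DRG, and the fit without the sex covariate 30. Females alone gave 5 calls (2 and 3) and males alone 58 (38 and 20). Leaving out 1 library gave 83 to 166 calls, 53 to 100 higher in TG and 30 to 66 higher in DRG. The count fell by more than 1.5 times without female TG 1 (83 in all, 30 higher in DRG), and the DRG count alone without male DRG 2 (35), male TG 2 (35) or male TG 3 (36). The cause was not tested.

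A replicate block within sex gave 179 calls (107 and 72). The correlations of same-numbered TG and DRG libraries, as deviations from their group means, were 0.03, 0.12 and 0.21 in females and 0.04, 0.12 and 0.22 in males, and not every library correlated best with its own number. Of the 6 same-numbered pairs 4 were above 0.1, whereas differently numbered libraries of a sex ran from -0.20 to 0.10. Libraries of the same number may therefore share some variation, which the main model leaves out. The numbers were still not taken as pairs, and whether libraries share mice is not known. The interaction of ganglion and sex had 0 calls in every alternative (smallest adjusted p = 0.0735, without female DRG 3). These alternatives, and the bounds and ratios without 1 library, were chosen after seeing the data. Genes near the floor of 3 counts give lower bounds only.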
